A study of Mus musculus with 7 samples.

Results

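The genes of DNA replication were compared between mouse T-cell acute lymphoblastic leukemias of different origin, in cells taken from terminally ill C57Bl/6 mice. The set was chosen by name and function, from the loading of the replicative helicase onto origins to the work of the replication fork, and held 48 genes. It was put together with earlier results of these data known, so its share of called genes is a description. Of these, 47 had a probe set annotated with exactly 1 gene symbol and were analysed among 18193 genes in all, while Chaf1a was not analysed here. Each gene was read from 1 probe set, the one with the highest mean over the 7 arrays. The ICN1 group, 3 arrays, held bone marrow cells from leukemias driven by activated NOTCH1 (ICN1, the intracellular part of this receptor). The TEL-JAK2 group, 4 arrays, held thymus cells from leukemias driven by the TEL-JAK2 fusion kinase. Genotype and tissue change together and cannot be told apart. The sources used here do not give the promoter of each oncogene, the age of the mice or whether cells were transplanted, and the labels name no sorting of the cells. The labels give each array as a leukemia with a number of its own but do not state that each came from a separate mouse, so the p-values measure the spread among these 7 samples.

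DNA replication starts at origins bound by the origin recognition complex. In G1 phase, CDC6 and CDT1 load the ring of MCM2-7 subunits there, a step called licensing, and geminin later blocks CDT1 so that no origin is licensed again in the same cycle. In S phase the kinase CDC7 with DBF4, and the factors CDC45 and GINS, turn the loaded ring into the active helicase, behind which primase, polymerases, the PCNA clamp and its loader RFC build the new strands and histone chaperones rebuild chromatin. Many of these genes are transcribed under E2F factors as cells enter S phase, so that in dividing thymocytes, marrow precursors and leukemic cells their transcripts are abundant.

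The arrays agreed more within a group than between groups (Pearson's r over 45037 probe sets 0.973 to 0.989 within and 0.921 to 0.944 between). ICN1 replicates 1 and 2 stood apart in holding both Xist (11.51 and 11.79 on the log2 scale) and the Y-linked Eif2s3y (8.93 and 9.41), whereas each of the other arrays held Xist or Eif2s3y but not both. The pair thus held transcripts of both sexes, the labels do not say whether animals were pooled, and the ICN1 means and SDs may describe mixtures of animals. Results are also given without this pair. Among the TEL-JAK2 arrays, replicate 4 alone held Eif2s3y (10.23), with Xist at 5.19. Of 9 measured T-lineage genes, 5 were higher in TEL-JAK2, namely Bcl11b (1.62 ± 0.15), Cd2 (1.26 ± 0.14), Cd3g (0.68 ± 0.14), Cd247 and Cd3d, and 1 was lower, Cd5 (-1.76 ± 0.49). Their mean level was 10.94 to 11.00 in ICN1 and 11.53 to 11.85 in TEL-JAK2. Of 11 erythroid genes 9 were lower in TEL-JAK2, with the smallest adjusted p for Rhag (-8.60), Ermap (-6.89) and Car2 (-7.65). The mean level of the erythroid list was 10.68 to 11.07 in ICN1 and 5.67 to 6.04 in TEL-JAK2. Granulocyte genes were lower for 5 of 10, S100a8, S100a9, Camp, Ngp and Lcn2 (list level 6.27 to 8.04 against 5.20 to 5.65) and macrophage genes for 4 of 8, Csf1r, Mrc1, Vcam1 and Cd14 (8.91 to 10.26 against 6.39 to 8.63). B-lineage genes were higher for 2 of 9, Vpreb1 and Blk (5.83 to 7.33 against 6.67 to 7.56). Thymic epithelial genes were higher for 2 of 7, Foxn1 and Aire (4.92 to 5.30 against 5.12 to 5.87). Foxn1 read 4.45 to 4.94 on all arrays, under the median level of all genes tested (6.27). Its adjusted p by limma was 0.0497, close to the threshold of 0.05. By the same test 11.9% of all genes were higher and 12.2% lower. Red cell precursors divide and use the same replication genes, and the part of these other cells in the results below was not tested. In such bulk samples, fewer cells of a type and less RNA per cell cannot be told apart.

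Most replication genes were lower in the TEL-JAK2 leukemias. By limma, 41 of the 47 measured members fell in TEL-JAK2 relative to ICN1, 0 rose and 6 did not pass the test (called means an adjusted p under 0.05, by Benjamini and Hochberg's method over all 18193 genes). Over all genes 12.2% were called lower and 11.9% higher. The median difference of the members was -1.13 on the log2 scale (TEL-JAK2 minus ICN1), against 0.04 for all genes, and 29 members were called and at least 2-fold lower, which held for 6.1% of all genes. Every TEL-JAK2 array lay below every ICN1 array for 43 members, an order found for 15.9% of all genes; the opposite order was found for 0 members and 18.4% of all genes. The sign was negative for 45 of the 47. The exceptions were the histone chaperone gene Chaf1b and Cdca7, which were not called. Their sign turned negative when each array was centred on the mean of 4 CD3 genes, which shifts every difference by the same -0.62. The turn follows from that fixed shift and says nothing particular about these genes. That centring, which lowered the median of all genes to -0.58, left 45 members called lower, with 62.7% of all genes. The 6 members that did not pass were the 3 genes of the single-strand binding protein RPA, the primase subunit gene Prim2, Chaf1b and Cdca7.

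**Figure D1:**
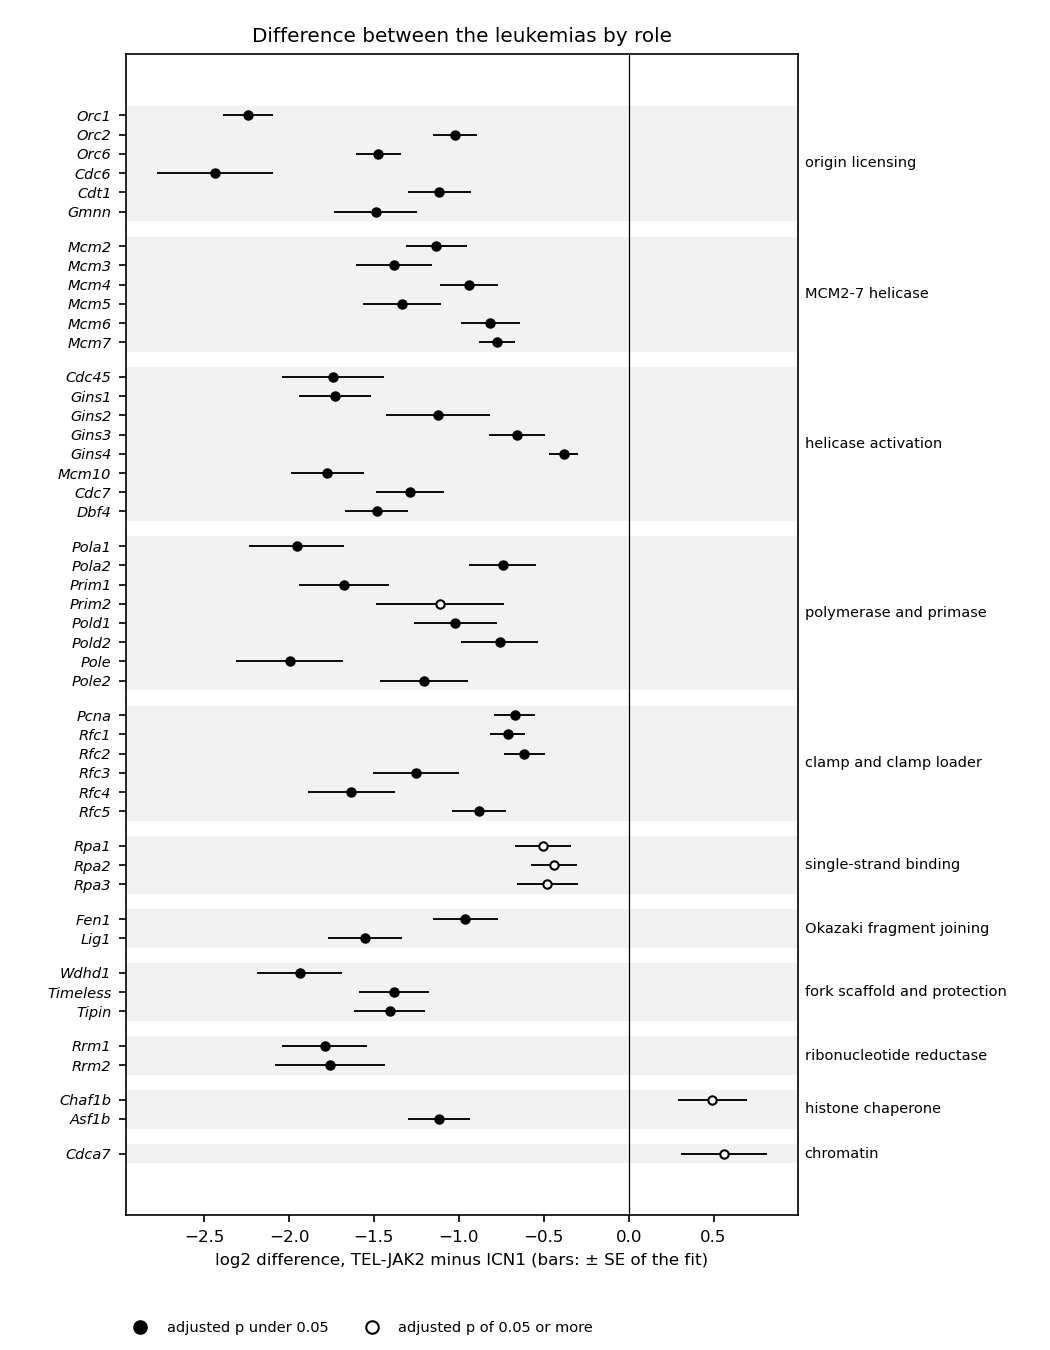
Log2 difference (TEL-JAK2 minus ICN1, n = 4 and n = 3 arrays) of the 47 measured replication genes, ordered by role. Points are the fitted differences and bars the SE; filled points are called by limma. The 41 filled points all lie left of 0, and the open points are the 3 RPA genes, Prim2, Chaf1b and Cdca7.

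The count depends on how strict the test is. The direction did not change for the 45 negative members under any alternative run, but this is a weak check. Several alternatives reuse the same differences, and leaving out arrays cannot turn the sign of the 43 members without overlap. A test against a 1.5-fold difference called 16 members lower (3.69% of all genes), and testing each gene by itself, with unequal variances allowed, called 24 (4.88%). Without ICN1 replicates 1 and 2, which leaves a single ICN1 array assumed to vary like the TEL-JAK2 arrays, 11 were called lower (8.56%), with a median difference of -1.16. In each of the 7 fits that left out 1 array, 35 of the 41 kept their call. The other 6 were Gins2, Gins3, Gins4, Pola2, Pold1 and Pold2. Many of the 35 lost their call under a stricter test. With unequal variances 17 of all 41 lost it, among them Gins2, Gins3, Pola2, Pold1 and Pold2, which are not of the 35. Mcm3 to Mcm6, Pole, Lig1 and Rrm2, which are of the 35, also lost it. The 1.5-fold test did not call any of Mcm2 to Mcm7.

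**Figure D2:**
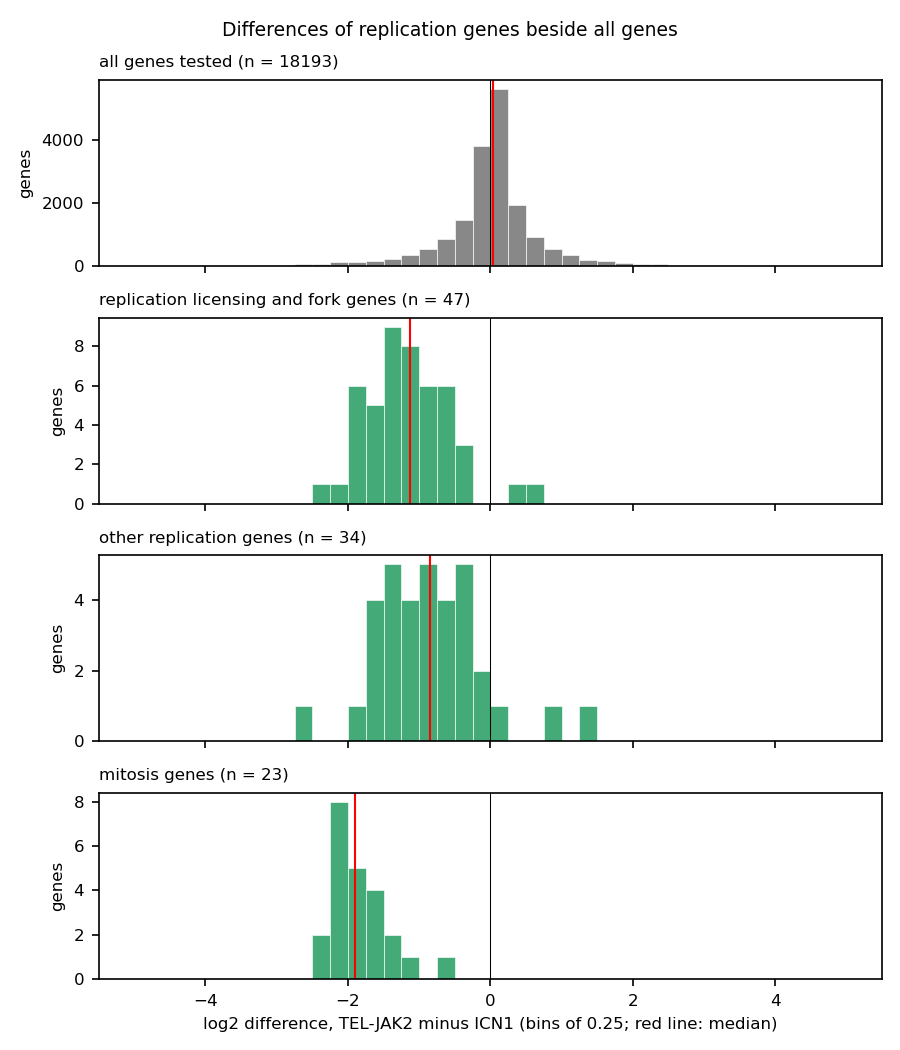
Number of genes (vertical axis) by log2 difference, TEL-JAK2 minus ICN1, in bins of 0.25 for all genes tested, the 47 members, 34 other replication genes and 23 mitosis genes; red lines are medians, and genes of the first panel beyond 5 in size are not drawn. The medians are 0.04, -1.13, -0.85 and -1.90.

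Upstream sequence was examined because the members are known as E2F-regulated genes and moved together. The 250 bases before each annotated start were searched on both strands for TTCCCGC and TTGGCGC, the cores of common E2F sites, in RefSeq sequence of build GRCm38.p6. Windows were at hand for 39 of the 48 genes; Gmnn, Mcm4, Gins1, Gins2, Gins4, Prim2, Pole, Rfc2 and Tipin were not matched. Of 46 windows of the matched genes, 15 held a core (32.6%), against 5.62% of all 32851 windows. The members are known as E2F-regulated genes, so a high share could follow from the choice of genes alone. It says nothing about these leukemias. A core stood upstream of 9 of the 33 matched genes that were called lower and of 4 of the 5 matched genes that were not called. The stretches are shown for the 4 called genes with a core and the largest differences, and then for Chaf1b and Cdca7, which carry the same letters and were not called. Capitals mark the cores, which read GCGGGAA or GCGCCAA where they lie on the opposite strand.
Cdc6: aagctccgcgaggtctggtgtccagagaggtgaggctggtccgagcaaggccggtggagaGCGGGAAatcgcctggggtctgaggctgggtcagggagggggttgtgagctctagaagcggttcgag
Pola1: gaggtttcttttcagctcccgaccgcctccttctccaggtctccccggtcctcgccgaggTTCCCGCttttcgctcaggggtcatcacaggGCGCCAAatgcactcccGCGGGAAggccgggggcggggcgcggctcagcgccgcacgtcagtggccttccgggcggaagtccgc
Rrm1: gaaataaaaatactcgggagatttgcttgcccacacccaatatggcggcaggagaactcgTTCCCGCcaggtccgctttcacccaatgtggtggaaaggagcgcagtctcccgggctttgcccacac
Prim1: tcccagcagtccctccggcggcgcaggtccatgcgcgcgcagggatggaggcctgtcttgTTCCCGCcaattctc
Chaf1b: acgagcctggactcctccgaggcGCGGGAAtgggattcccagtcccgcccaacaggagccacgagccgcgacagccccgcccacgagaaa
Cdca7: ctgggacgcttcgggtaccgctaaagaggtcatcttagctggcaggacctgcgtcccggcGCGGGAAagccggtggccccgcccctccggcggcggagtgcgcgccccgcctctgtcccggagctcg
These lie at chr11:98907953-98908079 (plus strand), chrX:93632210-93632384 (minus strand), chr7:102441568-102441694 (plus strand), chr10:128015140-128015214 (plus strand), chr16:93883651-93883740 (plus strand) and chr2:72476088-72476214 (plus strand), each upstream of the first exon and written 5′ to 3′ on the strand of its gene. The Pola1 stretch holds 3 cores and the others 1 each. A match is a description of the sequence and not evidence that a factor binds there.

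Values below are log2 expression values, listed for ICN1 replicates 1 to 3 and then for TEL-JAK2 replicates 1 to 4, and each difference is followed by its SE. All 6 measured licensing genes fell, with a median difference of -1.48. Orc1, the ATPase subunit of the origin recognition complex whose level follows the cell cycle, read 8.49, 8.68 and 9.03 in ICN1 and 6.66, 6.49, 6.40 and 6.42 in TEL-JAK2. It was 4.73-fold lower (-2.24 ± 0.15, adjusted p = 9.76e-05), and its groups were separated by 1.83 log2 units. Cdc6, the loader that joins the complex in G1, read 10.73, 10.37 and 10.39 in ICN1 and 8.76, 7.69, 7.32 and 8.46 in TEL-JAK2 and was 5.42-fold lower (-2.44 ± 0.34, adjusted p = 0.00262). This was the largest difference among the members, and the TEL-JAK2 arrays were themselves spread over more than 1 log2 unit, with replicate 3 lowest. Orc6, a small subunit of the origin complex, read 10.05, 9.91 and 9.97 in ICN1 and 8.55, 8.71, 8.21 and 8.55 in TEL-JAK2 (-1.47 ± 0.13), and Orc2, a core subunit, read 9.09, 8.95 and 8.88 in ICN1 and 7.96, 8.23, 7.84 and 7.78 in TEL-JAK2 (-1.02 ± 0.13). Both were below ICN1 on every TEL-JAK2 array. Cdt1, which brings the helicase to the origin, read 12.36, 12.45 and 11.96 in ICN1 and 11.29, 11.22, 10.75 and 11.31 in TEL-JAK2 (-1.11 ± 0.18, adjusted p = 0.00510). Gmnn, which encodes geminin, the inhibitor of CDT1, read 11.71, 11.77 and 11.82 in ICN1 and 10.55, 10.52, 9.57 and 10.48 in TEL-JAK2 (-1.49 ± 0.24, adjusted p = 0.00506). The licensing factor and its inhibitor were thus both lower, and for both of them TEL-JAK2 replicate 3 stood well under the other TEL-JAK2 arrays. Cdt1 had the largest adjusted p of the role.

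The 6 genes of the helicase ring, Mcm2 to Mcm7, all fell, with differences from -1.38 to -0.78 and no overlap between the groups. Mcm3 read 11.36, 11.29 and 11.49 in ICN1 and 10.16, 10.03, 9.40 and 10.39 in TEL-JAK2 and was 2.61-fold lower (-1.38 ± 0.22, adjusted p = 0.00473). Mcm5 read 12.48, 12.39 and 12.30 in ICN1 and 11.39, 11.17, 10.42 and 11.26 in TEL-JAK2 (-1.33 ± 0.23, adjusted p = 0.00613), and Mcm2 read 11.46, 11.21 and 11.23 in ICN1 and 10.32, 9.95, 9.87 and 10.53 in TEL-JAK2 (-1.13 ± 0.18). In these 3 genes the ICN1 arrays lay within 0.3 of each other, while TEL-JAK2 replicate 3 was lowest. Mcm4 read 12.02, 11.66 and 12.17 in ICN1 and 11.22, 10.86, 10.77 and 11.20 in TEL-JAK2 (-0.94 ± 0.17). Mcm6 read 12.67, 12.56 and 12.62 in ICN1 and 12.06, 11.74, 11.38 and 12.04 in TEL-JAK2 (-0.81 ± 0.18, adjusted p = 0.0145), the largest adjusted p of the ring. Mcm7 read 13.32, 13.32 and 13.27 in ICN1 and 12.61, 12.35, 12.46 and 12.69 in TEL-JAK2, a 1.71-fold difference (-0.78 ± 0.11, adjusted p = 0.00246). Mcm7 was the ring gene with the smallest difference from the probe set used, but its 3 further probe sets gave -1.25, -1.26 and -0.58, so its place within the ring depends on the probe set.

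All 8 genes that activate the loaded helicase were called lower, with a median difference of -1.39, although their sizes ranged from -1.77 to -0.38. Mcm10, which helps the activated helicase to open the origin, read 9.70, 9.44 and 9.32 in ICN1 and 8.06, 7.63, 7.20 and 7.95 in TEL-JAK2 and was 3.42-fold lower (-1.77 ± 0.22, adjusted p = 0.00151). Cdc45, which joins the ring to form the active helicase, read 8.86, 8.46 and 9.08 in ICN1 and 7.41, 7.27, 6.26 and 7.30 in TEL-JAK2 (-1.74 ± 0.30, adjusted p = 0.00618). Its 3 other TEL-JAK2 arrays lay within 0.2 of each other and replicate 3 lay 1 log2 unit under them. Dbf4, the regulatory subunit of the origin-firing kinase, read 10.75, 10.95 and 11.16 in ICN1 and 9.75, 9.47, 9.06 and 9.60 in TEL-JAK2 (-1.48 ± 0.18), and Cdc7, the kinase itself, read 9.83, 9.53 and 10.03 in ICN1 and 8.69, 8.19, 8.29 and 8.86 in TEL-JAK2 (-1.29 ± 0.20). Both subunits of the kinase were therefore lower without overlap.

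The 4 genes of the GINS complex, which links CDC45 to the ring, differed in size among themselves. Gins1 read 9.94, 9.88 and 10.04 in ICN1 and 8.47, 8.46, 7.63 and 8.32 in TEL-JAK2 and was 3.32-fold lower (-1.73 ± 0.21, adjusted p = 0.00153). Gins2 read 9.16, 8.85 and 8.44 in ICN1 and 7.92, 7.81, 6.92 and 8.12 in TEL-JAK2 (-1.12 ± 0.31, adjusted p = 0.0357), with both groups widely spread. Gins3 read 7.58, 7.33 and 7.20 in ICN1 and 6.98, 6.79, 6.69 and 6.38 in TEL-JAK2 (-0.66 ± 0.16, adjusted p = 0.0253). Gins4 read 9.59, 9.55 and 9.55 in ICN1 and 9.23, 9.23, 9.19 and 9.08 in TEL-JAK2, a 1.30-fold difference (-0.38 ± 0.08, adjusted p = 0.0148), the smallest of any called member but with each group within 0.2. The calls of 3 of these genes rest on single arrays. That of Gins2 ended when replicate 1 or 2 of either group was left out (adjusted p from 0.0631 to 0.114). The Gins3 call ended when ICN1 replicate 1 or 2, or TEL-JAK2 replicate 2 or 3, was left out (0.0501 to 0.0833), and the Gins4 call when ICN1 replicate 1 was (0.0510).

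Of 8 polymerase and primase genes 7 fell. Pole, the catalytic subunit of the leading-strand polymerase epsilon, read 9.85, 9.76 and 9.75 in ICN1 and 8.05, 7.73, 6.96 and 8.43 in TEL-JAK2 and was 3.99-fold lower (-2.00 ± 0.32, adjusted p = 0.00428). Its accessory subunit gene Pole2 read 9.74, 9.28 and 9.90 in ICN1 and 8.51, 8.78, 7.81 and 8.64 in TEL-JAK2 (-1.20 ± 0.26, adjusted p = 0.0147). In polymerase alpha, which starts every new strand, the catalytic subunit gene Pola1 read 10.33, 10.10 and 9.80 in ICN1 and 8.62, 7.94, 7.50 and 8.44 in TEL-JAK2 (-1.96 ± 0.28, adjusted p = 0.00277). The regulatory subunit gene Pola2 read 9.62, 9.46 and 10.03 in ICN1 and 8.86, 8.98, 8.67 and 9.34 in TEL-JAK2 (-0.74 ± 0.20, adjusted p = 0.0318). Within both enzymes the catalytic subunit had the larger difference; that contrast between genes was not tested. Prim1, the catalytic primase subunit that lays down the RNA primer, read 11.51, 11.45 and 11.22 in ICN1 and 10.11, 9.69, 9.01 and 10.05 in TEL-JAK2 and was 3.20-fold lower (-1.68 ± 0.26). Its partner Prim2 read 9.76, 9.88 and 10.31 in ICN1 and 8.41, 8.77, 8.38 and 9.92 in TEL-JAK2. Here TEL-JAK2 replicate 4 lay among the ICN1 arrays and the other 3 lay below them, and Prim2 was not called (-1.11 ± 0.38, adjusted p = 0.0741). Without TEL-JAK2 replicate 4, the array that overlapped ICN1, its difference was -1.46 (adjusted p = 0.00313). Leaving out the overlapping array favours a call, and of the 7 fits without 1 array only this fit called Prim2. Its 2 further probe sets read -1.19 and -1.03 and were not called either.

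Polymerase delta, which copies the lagging strand, was represented by its catalytic gene Pold1 and its accessory gene Pold2. Pold1 read 10.57, 10.47 and 9.96 in ICN1 and 9.51, 9.44, 8.73 and 9.59 in TEL-JAK2 (-1.02 ± 0.25, adjusted p = 0.0221), and Pold2 read 10.61, 10.05 and 10.30 in ICN1 and 9.44, 9.75, 9.10 and 9.95 in TEL-JAK2 (-0.76 ± 0.23, adjusted p = 0.0480). Both were called with little margin. Pold2 kept its call only in the fit without TEL-JAK2 replicate 4 among the 7 without 1 array (adjusted p from 0.0288 to 0.145), and lost it with quantile normalization applied again (0.0590). The Pold1 call ended when ICN1 replicate 1 or 2 was left out (0.0744 and 0.0722), and the Pola2 call when ICN1 replicate 1 or 3, or TEL-JAK2 replicate 1, 2 or 3, was (0.0690 to 0.0865).

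The clamp and its loader had 6 of 6 genes lower, with a median difference of -0.80. Pcna, the sliding clamp that tethers the polymerases, read 13.95, 13.84 and 13.84 in ICN1 and 13.34, 13.21, 12.93 and 13.34 in TEL-JAK2 and was 1.59-fold lower (-0.67 ± 0.12, adjusted p = 0.00781). Rfc1, the large subunit of the loader, read 9.75, 9.92 and 9.65 in ICN1 and 9.12, 9.04, 8.93 and 9.15 in TEL-JAK2 (-0.71 ± 0.10, adjusted p = 0.00301). Both were modest shifts, but neither group spread enough to overlap the other. Among the small loader subunits Rfc4 read 11.01, 10.97 and 10.56 in ICN1 and 9.20, 9.66, 8.58 and 9.41 in TEL-JAK2 (-1.63 ± 0.26), and Rfc3 read 9.72, 9.53 and 9.18 in ICN1 and 8.53, 8.36, 7.58 and 8.43 in TEL-JAK2 (-1.25 ± 0.25, adjusted p = 0.0113). Rfc5 read 10.39, 10.06 and 10.03 in ICN1 and 9.45, 9.31, 8.94 and 9.42 in TEL-JAK2 (-0.88 ± 0.16), and Rfc2 read 10.39, 10.34 and 10.27 in ICN1 and 9.79, 9.83, 9.43 and 9.81 in TEL-JAK2 (-0.61 ± 0.12, adjusted p = 0.0107). The subunits of this single complex therefore differed from 1.53-fold for Rfc2 to 3.10-fold for Rfc4, and Rfc3 had the largest adjusted p of the role.

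The genes of RPA, the trimer that coats single-stranded DNA at the fork and also serves DNA repair, were the single multi-gene role with 0 members called. Rpa1 read 12.67, 12.57 and 12.34 in ICN1 and 12.09, 12.19, 11.62 and 12.17 in TEL-JAK2 (-0.50 ± 0.17, adjusted p = 0.0674). Rpa2 read 10.50, 10.57 and 10.28 in ICN1 and 10.05, 10.17, 9.72 and 10.10 in TEL-JAK2 (-0.44 ± 0.14, adjusted p = 0.0552), and Rpa3 read 10.97, 10.88 and 10.84 in ICN1 and 10.45, 10.87, 10.19 and 10.16 in TEL-JAK2 (-0.48 ± 0.18, adjusted p = 0.0996). The groups did not overlap for Rpa1 and Rpa2, whereas TEL-JAK2 replicate 2 reached the ICN1 range for Rpa3. These results lay near the threshold. The further probe set of Rpa1 was called lower (-0.72, adjusted p = 0.00994 over all probe sets). With CD3 centring all 3 were called lower (-1.13, -1.06 and -1.10), but so were 62.7% of all genes. That centring shifts the difference of every gene by the same -0.62, so it gives no separate support for a fall of RPA. Without TEL-JAK2 replicate 2, the array that reached the ICN1 range, Rpa3 was called (-0.63, adjusted p = 0.0161). Leaving out the overlapping array favours a call, and of the 7 fits without 1 array only this fit called Rpa3. Whether RPA differed less than other roles was not tested.

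Both genes of Okazaki fragment joining fell. Lig1, the ligase that seals the fragments, read 10.98, 10.95 and 10.98 in ICN1 and 9.64, 9.19, 8.96 and 9.88 in TEL-JAK2 and was 2.94-fold lower (-1.55 ± 0.22, adjusted p = 0.00258). Fen1, the nuclease that trims their flaps, read 11.92, 11.81 and 11.44 in ICN1 and 10.84, 10.78, 10.37 and 11.07 in TEL-JAK2 (-0.96 ± 0.19, adjusted p = 0.0104). The ICN1 arrays of Lig1 agreed to within 0.04, against a range of 0.9 in TEL-JAK2. The 3 genes of the fork scaffold fell as well, each at least 2-fold. Wdhd1, which ties polymerase alpha to the helicase, read 10.11, 9.97 and 9.81 in ICN1 and 8.11, 8.04, 7.40 and 8.55 in TEL-JAK2 (-1.94 ± 0.25, adjusted p = 0.00190). Timeless read 9.44, 9.68 and 9.55 in ICN1 and 8.25, 8.03, 7.75 and 8.66 in TEL-JAK2 (-1.38 ± 0.21, adjusted p = 0.00346), and its partner Tipin, with which it stabilizes stalled forks, read 11.78, 11.56 and 11.57 in ICN1 and 10.36, 10.34, 9.67 and 10.55 in TEL-JAK2 (-1.41 ± 0.21). The Timeless and Tipin differences were equal within their SE. Ribonucleotide reductase, the enzyme that makes deoxynucleotides, fell in both subunits. Rrm1, the large subunit, read 12.52, 12.41 and 12.25 in ICN1 and 10.96, 10.56, 9.95 and 10.94 in TEL-JAK2 and was 3.46-fold lower (-1.79 ± 0.25, adjusted p = 0.00250). Rrm2, the small subunit that is limiting in S phase, read 13.03, 12.90 and 12.63 in ICN1 and 11.65, 11.00, 10.26 and 11.45 in TEL-JAK2 (-1.76 ± 0.32, adjusted p = 0.00771). Both ranked the TEL-JAK2 arrays with replicate 3 lowest and replicate 2 next.

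The 2 measured histone chaperone genes had differences of opposite sign. Asf1b, which hands histones to the assembly machinery, read 10.86, 10.60 and 10.58 in ICN1 and 9.79, 9.68, 9.09 and 9.67 in TEL-JAK2 and was 2.17-fold lower (-1.12 ± 0.18, adjusted p = 0.00516). Chaf1b, a subunit of the chromatin assembly factor that deposits histones behind the fork, read 9.63, 9.58 and 9.51 in ICN1 and 10.22, 10.12, 10.40 and 9.53 in TEL-JAK2. Replicates 1 to 3 of TEL-JAK2 lay above all ICN1 arrays and replicate 4 lay among them, and Chaf1b was not called (0.49 ± 0.20, adjusted p = 0.123). Without TEL-JAK2 replicate 4, the array that overlapped ICN1, it was called higher (0.67, adjusted p = 0.00791), as were 2170 of all 18193 genes. It was also called higher from the mean of its probe sets (0.55, adjusted p = 0.0476, where 11.5% of all genes were called higher). With CD3 centring, which shifts every difference by the same -0.62, its sign had to turn (-0.13, adjusted p = 0.516). Cdca7, a chromatin factor induced by MYC and NOTCH that works with the remodeller HELLS, read 10.83, 11.00 and 11.36 in ICN1 and 12.09, 11.51, 11.85 and 11.07 in TEL-JAK2. Its difference was 0.56 ± 0.25 and was not called (adjusted p = 0.158), with TEL-JAK2 replicate 4 inside the ICN1 range. Leaving out the overlapping array favours a call, and of the 7 fits without 1 array only that fit called Cdca7 higher (0.75, adjusted p = 0.0420). The same fit called 2170 of all 18193 genes higher. With CD3 centring the fixed shift turned the sign of Cdca7 too (-0.058, adjusted p = 0.843). Its second probe set read 0.67 and was not called.

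**Figure D3:**
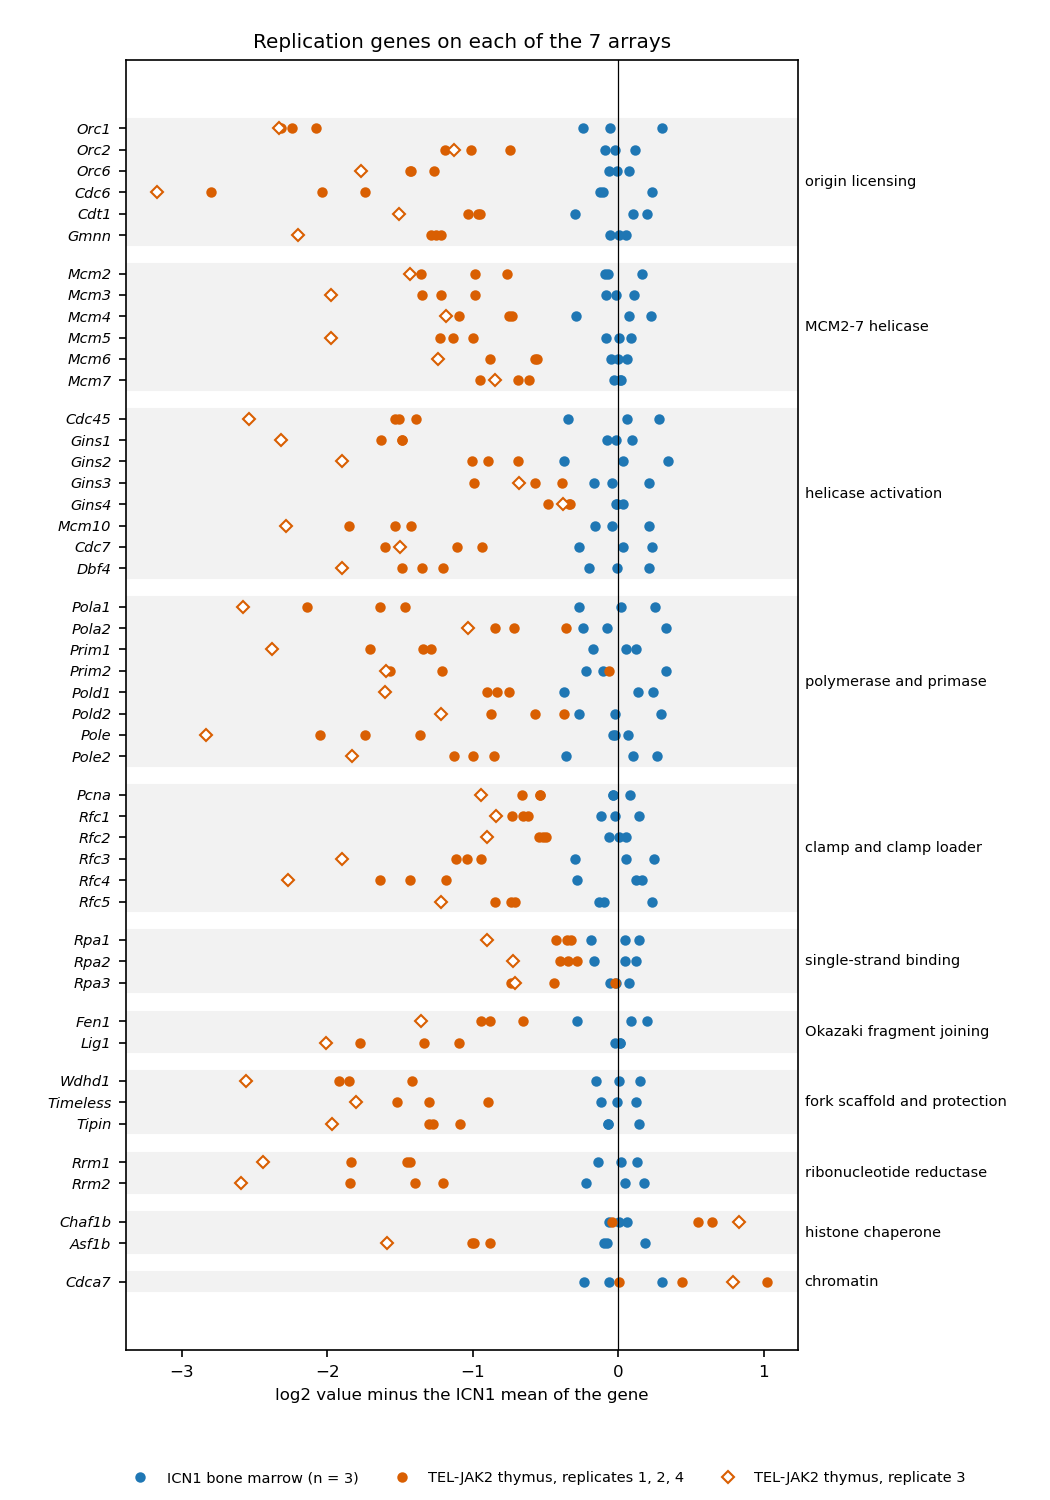
Log2 value of each of the 47 genes on each array minus the ICN1 mean of that gene; blue points are the 3 ICN1 arrays, orange points TEL-JAK2 replicates 1, 2 and 4 and open diamonds TEL-JAK2 replicate 3. For 43 genes every orange symbol lies left of every blue point, and replicate 3 is the lowest TEL-JAK2 array for 39.

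The TEL-JAK2 leukemias also differed among themselves. Replicate 3 was the lowest TEL-JAK2 array for 39 of the 47 members (83.0%), against 24.9% of all genes, and replicate 1 was the lowest for 0. The mean of the members, set against their ICN1 mean, was -1.58 in replicate 3 and -0.99, -1.13 and -0.97 in replicates 1, 2 and 4. The ICN1 arrays read 0.079, -0.037 and -0.042 on this measure. The median SD of a member was 0.38 in TEL-JAK2 and 0.16 in ICN1, where the medians over all genes were 0.16 and 0.18, and the SD was larger in TEL-JAK2 for 43 of 47 members. By role, replicate 3 read -2.52 for ribonucleotide reductase, -2.11 for the fork scaffold, -2.02 for licensing, -1.44 for the MCM ring and -0.78 for RPA. It was the lowest array in each of these roles. Among the marker lists, replicate 3 was the lowest TEL-JAK2 array for 8 of 8 macrophage genes (list level 6.39), 3 of 10 granulocyte genes (5.20) and 2 of 11 erythroid genes (5.67). It was also the lowest for 5 of 7 thymic epithelial genes, Krt5, Krt8, Krt18, Aire and Ccl25 (5.12). The same held for 4 of 9 B-lineage genes, Cd79a, Cd79b, Ms4a1 and Ebf1 (6.95). Replicate 3 was the highest for 6 of 9 T-lineage genes, the 4 CD3 genes, Thy1 and Bcl11b, and the lowest for Cd5 (6.70) and Cd7 (7.49). The mean of that list was 11.53 in replicate 3, also the lowest of the group. The part of these other cells in the lower values was not tested. Without replicate 3, the fit still called Orc1, Cdc6, Mcm2 to Mcm7, Pole, Rrm1 and Rrm2 lower, and the members that lost their call were Gins3, Pola2 and Pold2.

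**Figure D4:**
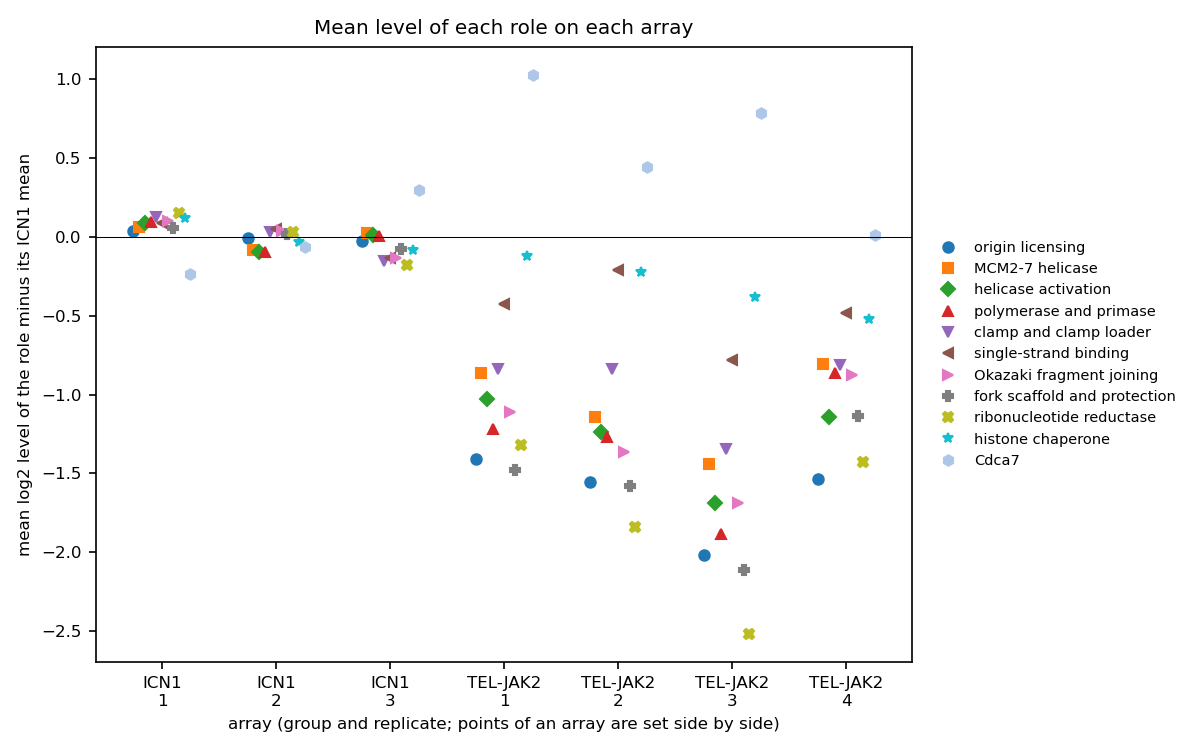
Mean log2 level of the genes of each role on each array minus the ICN1 mean of that role; each symbol is a role and the horizontal axis gives the 7 arrays. Symbols of the 3 ICN1 arrays lie between -0.23 and 0.30, and in TEL-JAK2 they run from -2.52 (ribonucleotide reductase, replicate 3) to 1.02 (Cdca7, replicate 1).

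More than 1 probe set was present for 34 members, which gave 50 further readings of the same genes. Tested singly among all probe sets with 1 symbol, 35 of the 50 were called lower and 1 higher, where 11.9% and 10.6% of all probe sets were. Of the 37 whose mean level was above the median probe set (5.89), 31 were lower, 0 higher and 6 not called, and 24 of the 37 gave a larger difference than the probe set used. Rrm2 read -2.30 and -2.25 from its further probe sets and Fen1 read -1.61. Others gave smaller differences. The further probe set of Cdc45 read -0.45 against -1.74 from the one used, and that of Orc1 read -1.43 against -2.24. For Mcm3, 1 further probe set read -0.66 against -1.38. The size given for such a gene thus depends on the probe set. Of the 13 dimmer ones 4 were lower (of Gins1, Mcm5, Mcm10 and Rrm1), 1 was higher (Chaf1b, 0.60 ± 0.15, mean level 4.94) and 8 were not called. Among the values used for the members, the lowest on any array was 6.26, for Cdc45 in TEL-JAK2 replicate 3, close to the median level of all genes tested (6.27).

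**Figure D5:**
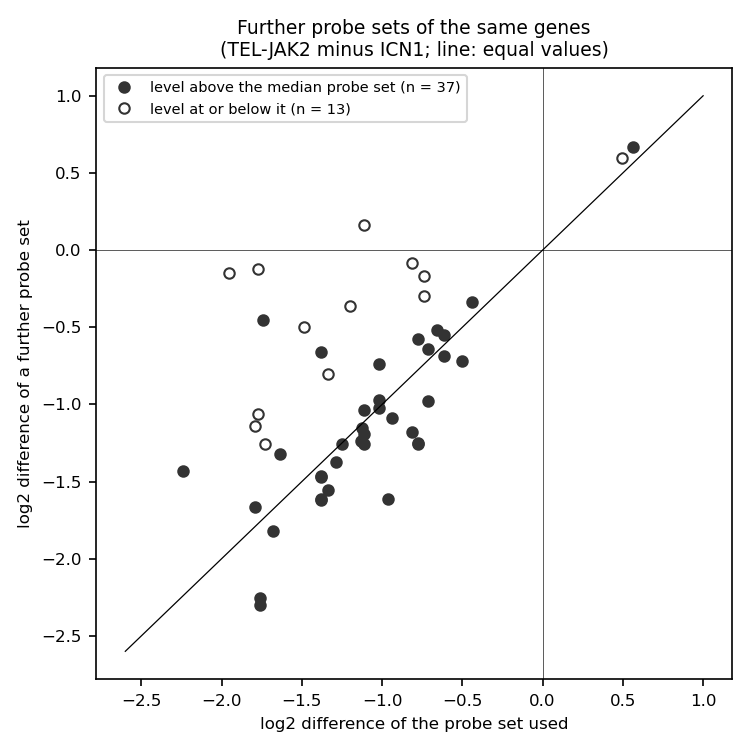
Log2 difference, TEL-JAK2 minus ICN1, of the 50 further probe sets (vertical axis) against that of the probe set used for the same gene (horizontal axis); filled points are the 37 with a mean level above the median probe set and open points the 13 others. All but 1 of the filled points lie below 0 on the vertical axis; the exception is Cdca7.

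Further replication genes outside the set were lower for 25 of 34 measured, higher for 2 and not called for 7, with a median difference of -0.85. Recql4, a helicase needed for origin firing, differed by -1.72 ± 0.10 (adjusted p = 6.34e-05). Pole3, a histone-fold subunit of polymerase epsilon, differed by -1.12 ± 0.10, Atad5, which unloads PCNA, by -1.47 ± 0.15, and the histone chaperone gene Asf1a by -0.95 ± 0.11. Tk1, the S-phase thymidine kinase, was 5.98-fold lower (-2.58 ± 0.29). The 2 genes that rose were Rrm2b, the ribonucleotide reductase subunit induced by p53 (0.93 ± 0.12, adjusted p = 0.00160), and Pold4, the smallest subunit of polymerase delta (1.28 ± 0.19, adjusted p = 0.00294). Rrm2b read 7.87, 7.71 and 7.80 in ICN1 and 8.76, 8.58, 8.94 and 8.60 in TEL-JAK2, and Pold4 read 7.55, 7.46 and 6.91 in ICN1 and 8.44, 8.87, 8.49 and 8.54 in TEL-JAK2. Neither overlapped between the groups, and both differed in the opposite direction to the members of the same enzymes, Rrm1 and Rrm2, and Pold1 and Pold2. With CD3 centring Pold4 was still called higher (0.66, adjusted p = 0.0194), while Rrm2b read 0.30 and was not called (adjusted p = 0.102). The origin gene Orc4 (0.16 ± 0.23) and the polymerase epsilon gene Pole4 (-0.04 ± 0.16) were not called. A comparison list of later cell cycle genes, named mitosis genes here, was lower for 23 of 23 measured, against 12.2% of all genes. The list also holds Ccna2, Top2a, Mki67 and Foxm1. Its median difference was -1.90, and among its genes were Aurka (-2.01 ± 0.17), Kif23 (-1.96 ± 0.18) and Mad2l1 (-1.90 ± 0.19). TEL-JAK2 replicate 3 was the lowest array of its group for 22 of these 23 genes.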

How the data were processed

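RNA of 7 leukemic cell suspensions was hybridized to Affymetrix mouse arrays, 1 array per sample. The authors deposited log2 expression values per probe set, credited to RMA in the submitters' processing notes; RMA draws arrays toward 1 distribution, so total RNA cannot be compared. The sources used here give neither its version nor its settings. The number of arrays limits the precision. Replicates were numbered in accession order, which only names them.

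Of 45037 probe sets, 34945 had 1 symbol in GEO's platform annotation, 932 several and 9160 none, giving 18193 genes. All genes were fitted with limma 3.58.1 in R 4.3.3 (lmFit, eBayes, two-sided) and adjusted by Benjamini-Hochberg. The fit was tested on simulated arrays. Values are printed for every called member and for the member of each role with the largest adjusted p. The members and lists were chosen with earlier results of these data known. Of the other replication genes, up to 6 called with the smallest adjusted p and the 2 with the largest are named; of each other list, up to 3 called with the smallest adjusted p; members of counts of 5 or fewer in the report are named. Alternatives covered probe set choice, dim genes, scaling (among them centring each array on the mean of Cd3d, Cd3e, Cd3g and Cd247), variance model, array weights, test, threshold and arrays left out. Figures were drawn with matplotlib 3.10.9.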

Additional observations from a re-analysis of the deposited data

Results flagged for a closer look

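In the TEL-JAK2 group of 4 arrays, 5 of the 47 members had 1 array far from the others, by the share of the group's range taken by the gap to that array (Dixon's test); chance gives such an array in about 1 of 20 groups. In all 5 the array was TEL-JAK2 replicate 3, which read 10.75 for Cdt1 (other arrays 11.22 to 11.31), 9.57 for Gmnn (10.48 to 10.55), 6.26 for Cdc45 (7.27 to 7.41), 9.43 for Rfc2 (9.79 to 9.83) and 9.09 for Asf1b (9.67 to 9.79). The members share arrays, so these are not independent readings. Without replicate 3 the 5 genes remained called lower by limma, with differences of -0.98, -1.25, -1.48, -0.52 and -0.96.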

How the results depend on the processing

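Of 20 alternatives, among them 7 fits without 1 array, none changed the sign of the 45 negative members. Several of them could not, because they reuse the same differences or leave out arrays of groups that do not overlap. CD3 centring turned Chaf1b (-0.13) and Cdca7 (-0.058). CD3 centring shifts every difference by the same -0.62. It moved the median of all genes to -0.58 and that of the members to -1.76, and the distance between these medians cannot change. With it 787 of all genes were called higher and 11410 lower, against 2165 and 2215, and 1 other replication gene higher. The 1.5-fold test left 16 members, 10 other replication genes and 672 of all genes lower, and 0 other replication genes and 515 of all genes higher. Unequal variances left 24, 11 and 888 lower, and 1 and 744 higher. An adjusted p under 0.01 left 30 members, 13 other replication genes and 1204 of all genes lower and 987 of all genes higher. Without ICN1 replicates 1 and 2 together, 11 members and 10 other replication genes were lower and 1039 of all genes higher. Averaging all probe sets of a gene called 1 member higher, Chaf1b. Over the 7 fits without 1 array, 35 to 42 members were lower and 0 to 2 higher (Chaf1b and Cdca7, when TEL-JAK2 replicate 4 was left out), and 16 (when ICN1 replicate 1 was) to 23 other replication genes were lower. Detection calls, which would show signal over background, were not used here. No paired analysis was possible because the labels give no replicate numbers shared between the groups.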
